A study of Mus musculus with 6 samples.

Results

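The brightest tsRNA probes of the mouse heart were 360 of the 1767 probes for tRNA-derived small RNAs (tsRNAs) on a small RNA microarray, and of 14242 non-control probes in all. They were chosen by level: the mean of their log2 intensity over 6 arrays, without scaling, reached that of 16384 intensity units. The levels chose these probes and are therefore given as a description, without a test. The contrast between infarcted and sham hearts played no part in the choice, since the mean weighted both groups equally.

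RNA came from hearts of male C57BL/6J mice aged 6 to 8 weeks and weighing 20 to 25 g, 3 days after the operation. Ligation of the left anterior descending coronary artery gave the hearts with myocardial infarction (MI), from which the infarcted area was sampled (n = 3 arrays). In the sham group a string was passed without ligation, and the matching region was sampled (n = 3 arrays). All arrays carried wild-type tissue of 1 strain, and each was hybridised with 100 ng of total RNA whose 3′ ends were dephosphorylated and joined to Cy3. Nothing in the labels says that the arrays of a group came from separate animals, so p-values measure the spread between these arrays, which may be technical. Slide 1 held all MI arrays together with sham 1, while the other sham arrays were on slide 2.

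Transfer RNAs carry amino acids to the ribosome and are among the most abundant small RNAs of a cell. Nucleases such as angiogenin cut them, in particular under stress, into fragments of various lengths, some of which can bind Argonaute proteins or slow translation. Heart muscle has a high demand for protein and energy, and ischaemia stresses its cells. The labels name no size selection of the RNA, so whole tRNAs and their fragments could both take up dye, and a probe cannot tell them apart. Probes are known here by identifier only. Their sequences, parent tRNAs and fragment types were not analysed here. Because binding and labelling depend on sequence, a brighter probe need not stand for more RNA than a dimmer one. In tissue RNA, fewer cells of a type and less RNA per cell cannot be told apart either, and no marker of a cell type was read.

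The bright tsRNA probes carried 86.3% to 88.8% of the summed intensity of all non-control probes on each array. All 360 were well above background on all 6 arrays, and 0 of their spots were marked as saturated or as outliers. Between 91.4% and 94.2% of them were among the 360 brightest non-control probes of any given array. The same threshold was passed by 18 miRNA probes and 6 probes of a class coded PST. A mean of 65536 units or more was reached by 199 tsRNA probes and 0 miRNA probes.

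The order at the top was led by the same few probes. The brightest, ASMM10SMR20TRF100000821TV1, gave 203190, 244740 and 245516 units in MI 1 to 3 and 245054, 207020 and 239855 in sham 1 to 3. It ranked first on all 6 arrays, and its groups overlapped. The probe of rank 2, ASMM10SMR20TRF100000849TV1, gave 179941, 213359 and 215518 units in MI and 216351, 193834 and 219586 in sham. Its groups overlapped as well, with MI 1 lowest. The probe of rank 3 gave 179954, 199892 and 200567 units in MI and 212347, 190884 and 222463 in sham. It stayed within the first 4 places on every array.

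Below these 3 the steps became small. Rank 4 gave 166180, 176561 and 168887 units in MI and 171894, 199964 and 176677 in sham, where sham 2 alone stood out. It took places 2 to 21, although its values lay within a narrow band. Rank 5 gave 184083, 203304 and 203739 units in MI and 185335, 175468 and 120556 in sham, with sham 3 far below the rest. On sham 3 alone the scanner software had also corrected intensities for trends across the slide, and before that step the value was 192432. Its place on sham 3 was 131 after the correction and 4 before it. From rank 4 to rank 100 the mean signal fell 1.46-fold, from 176364 to 120813 units and from rank 1 to rank 4 it fell 1.30-fold. From rank 301 to rank 350 it fell 1.63-fold.

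Rank order was close to the same on all arrays. Spearman's rho between arrays over the 360 probes ran from 0.961 to 0.992, except for 0.947 between MI 3 and sham 3. The pair closest in order was MI 1 with sham 2, from different groups and slides. A probe moved over a median of 28 places between its highest and lowest array. Because the top is flat, 9 probes were in the first 20 of every array while 31 were in the first 20 of at least 1. For the first 100 places these numbers were 88 and 112.

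At the lower edge, the last probe inside the threshold had a mean of 16423 units and the first outside had 16178. The last inside, of rank 360, gave 14744, 16451 and 15336 units in MI and 17189, 17484 and 17554 in sham, with every MI value below every sham value. At rank 359 the signal was 16861, 17720 and 22105 units in MI and 12311, 18350 and 13850 in sham, with overlapping groups. The first probe outside gave 14984, 13676 and 11784 units in MI and 19273, 17719 and 21740 in sham. The next one outside, at a mean of 16119, gave 35335, 26799 and 38456 units in MI and 6159, 15101 and 5179 in sham. Neighbours at the threshold therefore differed in direction between the groups.

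Spread within a group was small and mostly fell as signal rose, though not for the few brightest probes. The median SD over the 3 arrays of a group was 0.10 in MI and 0.12 in sham on the unscaled log2 scale. The software's own error estimate for these spots was a fixed 10% of the signal, or 0.14 on the log2 scale. The SD over arrays lay below that value for 247 of 360 probes in MI and for 221 in sham. An SD above 0.5 was seen for 13 probes in sham, up to 1.16, and for 0 in MI, where the highest was 0.42.

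As a set, the bright tsRNA probes gave slightly less signal in MI than in sham as scanned. Their median was 69298, 70261 and 62830 units in MI 1 to 3 and 82423, 78475 and 91416 in sham 1 to 3. Every MI array lay below every sham array. Relative to the 75th percentile of all non-control probes of the same array, the median stood at 9.98, 9.80 and 9.33 log2 units in MI and at 10.70, 10.84 and 10.10 in sham. That percentile itself was 68.7, 78.7 and 97.4 units in MI and 49.6, 43.0 and 83.0 in sham, where sham 3 lay above MI 1 and MI 2. The median probe differed by -0.70 between MI and sham on this scale, against -0.07 over all 11974 small RNAs tested, and by -0.18 against 0.46 without scaling. Most of those RNAs were far dimmer. Over the 1481 with a mean of at least 200 units, the bright probes included, the median was -0.62 on the 75th percentile scale. A fall of this size was therefore not particular to the bright tsRNA probes. Quantile normalization, which gives all arrays the same distribution of signal, put the median at -0.0051 against 0.04, with 185 of the 360 negative. Most of the bright probes were among the 360 brightest of each array. That step therefore holds a shift shared by them near 0 by construction, and its median says nothing about such a shift. Without scaling 252 of the 360 differed by less than 1.25-fold between the group means of log2 signal.

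Single probes passed the test mainly where the signal was not at its highest. limma, with each array scaled to its 75th percentile and Benjamini-Hochberg adjustment over all 11974 small RNAs, called 23 of the 360 lower in MI (6.39%) and 0 higher, at an adjusted p under 0.05. Over all RNAs tested 3.79% were called lower and 0.309% higher. At an unadjusted p under 0.05 there were 288 of the 360, all lower, against 19.1% of all RNAs in either direction. The groups did not overlap, with MI below, in 188 of the 360 on this scale (52.2%, against a background of 19.7%) and in 174 without scaling (48.3%, against 4.71%). With MI above, it was 0 on this scale (against 4.62% of all RNAs) and 9 without scaling (2.50%, against 7.71%). One factor per array moves all these probes together, so such counts do not stand for separate findings. The 23 had brightness ranks from 156 to 358 and differed by -1.57 to -0.97 on the scaled log2 axis. Without scaling they differed by -1.05 to -0.44, or 1.36 to 2.07 times more signal in sham. None of the 150 probes above 92682 units was called, nor was any higher at an unadjusted p under 0.05. In a fit limited to the 1481 RNAs of at least 200 units, limma called 38 of the 360 lower (10.6%), against 22.1% of all 1481. It called 0 of the 360 higher there, against 1.76%.

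The mean reached the threshold in sham alone for 8 of the 360 probes and in MI alone for 6. Such a probe is in the set only through the group where it is high and had to differ, so its difference is a description and no support for a change in the set. Of the 23 called, 3 were of this kind and 20 were among the 346 probes that reached the threshold in both groups.

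The largest fall was that of ASMM10SMR20TRF100000281TV1, of rank 358. Its signal was 14189, 11909 and 9092 units in MI and 22962, 17679 and 33437 in sham, with no overlap. The scaled log2 difference was -1.57 (SE 0.27, limma adjusted p = 0.0181). ASMM10SMR20TRF100005004TV1, of rank 303, gave 24752, 21029 and 15684 units in MI and 42110, 35884 and 40060 in sham, again without overlap. Its scaled log2 difference was -1.49 (SE 0.33, limma adjusted p = 0.0454). The probe of rank 342 gave 14775, 14608 and 14702 units in MI, the tightest of these, and 26608, 22386 and 34344 in sham. Its scaled log2 difference was -1.42 (SE 0.19, limma adjusted p = 0.0125). Ranks 358 and 342 reached the threshold through sham alone, and rank 303 reached it in both groups.

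These calls depended on the scale and on single arrays. limma called 0 of the 360 lower with quantile normalization (47 at an unadjusted p under 0.05), against 0.76% of all RNAs. That scaling removes a shift shared by the brightest probes, so this 0 is partly fixed by it. It also called 0 of the 360 without scaling, with slide as a block, within slide 1, without MI 2 and without sham 1 (10, 189, 309, 242 and 133 at an unadjusted p under 0.05). In those 5 settings it called 0.0% of all RNAs lower, so these zeros say nothing about the bright probes in particular. Slide 1 holds 1 sham array, and the slide block rests on the same contrast. limma called 3 without MI 3 (against 0.785% of all RNAs), 3 without sham 2 (against 1.19%) and 3 with a variance trend (against 2.49%, with 0 called higher against 0.251%). Without sham 3 it called 312, against 11.9% of all RNAs. The difference kept its negative sign for all 23 in each of these settings.

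Scaling each array to the median of the bright probes compares every probe with the others of its own array. On that scale limma called 0 of the 360, with 16 at an unadjusted p under 0.05, of which 13 were higher and 3 lower in MI (lowest adjusted p = 0.0638). At that unadjusted level stood 60.8% of all RNAs tested. Over all small RNAs tested, 1.32% were called higher and 0.0% lower on that scale. The groups did not overlap in 131 of the 360 with MI above (36.4%, against 50.9%) and in 20 with MI below (5.56%, against 2.14%). The difference was within 0.5 log2 units for 326 of the 360, and ran from -0.73 to 2.01. The same 3 probes as above had the lowest values, -0.73, -0.65 and -0.58 (limma adjusted p = 0.0650, 0.0676 and 0.0782). A variance that follows the signal changed this count: limma with a trend called 121 of the 360 higher and 13 lower, against 39.5% and 0.935% of all RNAs tested. Without sham 2 limma called 14 of the 360 higher and 0 lower, against 8.15% and 0.0585% of all RNAs.

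The largest positive differences came from 3 probes in which sham 2 resembled the MI arrays. All 3 reached the threshold through MI alone, so their differences are given as a description. ASMM10SMR20TRF100004902TV1, of rank 345, gave 35051, 27738 and 45317 units in MI and 7025, 25926 and 7147 in sham. The groups were apart in unscaled signal, with sham 2 just below MI 2. The scaled log2 difference was 1.17 (SE 0.61, limma adjusted p = 0.359). ASMM10SMR20TRF100004906TV1, of rank 346, gave 32708, 25056 and 44585 units in MI and 6789, 28600 and 7426 in sham, where sham 2 lay above MI 2. Its difference of 1.03 (SE 0.64) had a limma adjusted p of 0.451. The probe of rank 321 gave 40794, 30296 and 53653 units in MI and 8964, 33596 and 10154 in sham, with a difference of 0.95 (SE 0.60, limma adjusted p = 0.455). Here too sham 2 lay within the range of the MI arrays. Without sham 2 these 3 differed by 1.99, 1.89 and 1.75, and limma called all of them higher (adjusted p = 0.0321, 0.0329 and 0.0370). They were then the only bright tsRNA probes called higher (0.833%), against 0.76% of all RNAs tested. These 3 were chosen for their rise, and sham 2 was their high sham array. Leaving it out was bound to widen the difference, so the calls are no support for a rise.

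A wider group shared this pattern. Picked after their values were seen, 10 of the 360 probes were at least 2-fold brighter in sham 2 than in the mean of sham 1 and sham 3, by 2.18-fold to 4.03-fold. Their median signal was 33859, 26363 and 44949 units in MI 1 to 3, 35509 in sham 2, and 11767 and 12895 in sham 1 and sham 3. All 10 had every MI array above both sham 1 and sham 3. The pick favours low values in those 2 sham arrays, and the share of all RNAs with this ordering is not given here. The ordering is therefore a description and no result about the group. In 7 of the 10, sham 2 exceeded MI 1. They ranked from 272 to 346, all in the fainter part of the set. Over all 360 the median difference of sham 2 from the other sham arrays was -0.14 log2 units, so sham 2 was not brighter in general. Of the 431 tsRNA probes from 256 units up to the threshold, 44 showed the same excess in sham 2. What sets sham 2 apart in these probes was not tested.

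All but 1 of the 23 calls lay in 1 stretch of the identifiers, a split also drawn after the values were seen. The tsRNA identifiers end in numbers up to 10066, and 193 probes have a number below 900. Of these, 69 were bright (35.8%), against 291 of the 1574 others (18.5%). Among the 69, limma called 22 lower in MI (31.9%), and among the 291 others it called 1, that of rank 303. What the numbering stands for is not known here. Between 256 and 16384 units the same split held for fainter tsRNA probes, with 48 of 65 below 900 called lower and 7 of 366 others.

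The gap between these stretches of identifiers, taken within each array, is free of any scaling, and it was smaller toward the top of the signal range. The split was drawn where the calls fell, and no call lay above 92682 units, so the gap and its decline are partly fixed by that choice and are given as a description. It is the median deviation of the low-numbered probes from their 6-array means minus that of the others at the same level. From 8192 to 16384 units, just under the threshold, it was -0.40, -0.45 and -0.35 log2 units in MI and 0.40, 0.11 and 0.66 in sham. Every MI array was negative and every sham array positive. From 16384 to 32768 units it was -0.24, -0.25 and -0.25 in MI and 0.27, 0.00 and 0.43 in sham. From 65536 to 131072 units it was -0.06, -0.09 and 0.04 in MI and 0.07, -0.01 and 0.04 in sham, and the groups overlapped. Between the groups the gap thus differed by -0.99 to -0.66 in the 6 steps from 256 to 16384 units. In the 4 steps above, it differed by -0.48, -0.27, -0.07 and 0.02. In the last step there were 13 low-numbered probes and 68 others. On slide 1, sham 1 stood at 0.40 just under the threshold and at 0.00 in the highest step.

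Measures that do not use the identifiers also narrowed as signal rose. The width from the 10th to the 90th percentile of the unscaled MI minus sham difference was 1.90 log2 units for the 85 tsRNA probes from 8192 to 16384 units. It was 1.07 for the 73 bright probes up to 32768 units, 0.71 for the 88 up to 65536, 0.33 for the 118 up to 131072 and 0.18 for the 81 above. A difference over 2-fold was shown by 11 of those 85 probes, by 4 of the 73 and by none of the 287 bright probes above 32768 units. The median SD in sham fell over the same 5 steps from 0.21 to 0.18, 0.14, 0.12 and 0.09. In MI it went from 0.18 to 0.20, 0.12, 0.09 and 0.07. Of these 5 steps, both groups were tightest in the highest. Within it, the 78 probes up to 185364 units had a median SD of 0.07 in MI and 0.09 in sham. The 3 probes above that were less tight, at 0.15 and 0.11. The fall in SD was not particular to the top. In sham it went from 0.52 for tsRNA probes from 16 to 32 units to 0.26 from 4096 to 8192 units. The width of the difference rose between those steps, from 0.48 to 2.11. For miRNA probes the width was 1.55 from 8192 to 16384 units, 0.71 up to 32768 (13 probes) and 0.85 up to 65536 (5 probes).

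Among the bright probes, differences between whole arrays narrowed only in the highest step. Each array's median deviation from the 6-array means ranged over 0.25 log2 units for the tsRNA probes from 8192 to 16384 units. In the steps above, it ranged over 0.34, 0.39, 0.42 and 0.24, so it widened first. For fainter tsRNA probes it ranged over 1.16 from 16 to 32 units, 0.78 from 256 to 512 and 0.38 from 512 to 1024. From 4096 to 8192 units it ranged over 0.61. A narrowing between arrays was thus not particular to the top. The 75th percentile of all probes, which lay far below these levels, differed 2.27-fold between the lowest and the highest array. The median of the bright probes differed 1.45-fold and their 95th percentile 1.16-fold. The 95th percentile of the bright probes was 153614, 166035 and 157378 units in MI and 171491, 161306 and 177466 in sham, and the groups overlapped. The distance from the 75th to the 95th percentile of the bright probes was 0.33 to 0.43 log2 units on every array, against 0.79 to 1.16 from the 5th to the 25th. Above 131072 units the array's log2 signal rose per unit of mean signal by 0.996, 1.101 and 1.23 in MI 1 to 3 and by 0.94, 0.93 and 0.79 in sham 1 to 3. Only MI 3 and sham 3, the dimmest and the brightest array by the median, departed from 1 by over 0.2, and MI 1 and the other sham arrays lay within 0.1 of it. The mean is that of the same 6 arrays, so these slopes average 1 by construction. They compare the arrays with each other and cannot show a compression shared by all.

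The scanner's limit was not reached. The saturation value in the file headers was 778111 units, and the highest spot, on MI 3, was at 31.6% of it. Control spots named GE_BrightCorner, 14 per array, had a median of 106277 to 126786 units, and 71 to 151 bright tsRNA probes per array exceeded that median. The cause of the narrowing was not tested. Differences near the top are given here in signal and not in amount of RNA.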

How the data were processed

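Each deposited value is the background-subtracted intensity of a spot, not on a log scale. Scans were read with Agilent Feature Extraction (version 11.0.1.1 in the submitters' processing notes). Per the file headers, background was removed with a spatial fit, and no scaling between arrays took place. For sham 3 only, intensities were also detrended across the slide. That changed 35 of the 360 bright tsRNA probes by over 10% (factors 0.622 to 1.14). Sample groups came from the titles. Outlier spots, 16 to 33 on an array, were dropped, and log2 intensities were scaled to each array's 75th percentile over non-control probes. Small RNAs well above background on at least 3 of 6 arrays (11974) were tested with limma 3.58.1 in R 4.3.3 (lmFit, eBayes, 1 term for the group). Self-tested on 11955 simulated probes, it recovered 93% of 2-unit and 53% of 1-unit log2 changes. The simulated noise was independent between probes, without a factor shared by the probes of an array. These rates therefore do not cover shifts of whole arrays. The number of arrays limits the precision.

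Probes with values in every array are brightness ranks 1 to 5, those next to the threshold, and the 3 largest falls and rises. Few identifiers are printed, since they are not paired with names here. The members, lists and tests were chosen with earlier results of these data known. The alternatives are other background corrections, scalings, filters, variance models, thresholds and blocks, and each array left out.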

Additional observations from a re-analysis of the deposited data

How the results depend on the processing

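The 23 bright tsRNA probes called lower in limma became 70 with normexp (against 4.23% of all RNAs), 2 with median scaling (0.894%), 9 with no filter (1.78%), 38 among RNAs of at least 200 units (22.1%), 228 with array weights (11.2%), 3 with trended variance (2.49%), 36 and 14 with thresholds of 8192 and 32768 units, and 0 without scaling, with scaling to high-signal RNAs, with quantile normalization, with the slide block and within slide 1. The counts at the thresholds of 8192 and 32768 units were of 445 and 287 probes (8.09% and 4.88%, against 3.79% of all RNAs). With scaling to high-signal RNAs 0.217% of all RNAs were called lower, and with quantile normalization 0.76%. Scaling to tsRNA probes from 4096 to 16384 units, added after seeing the data for this count, also gave 0. Those with 0 had 10, 23, 47, 189, 309 and 48 probes at an unadjusted p under 0.05. Leaving out single arrays gave 0 to 312. The count called higher, 0, was 1 with scaling to high-signal RNAs (0.278%, against 0.735% of all RNAs) and 1 with the threshold of 8192 units (0.225%, against 0.309%). It was 3 with quantile normalization (0.833%, against 0.543%) and with array weights (0.833%, against 1.34%). Over single arrays left out it was 0 to 3. The median difference of -0.70 was -0.18 without scaling, -0.32 with scaling to high-signal RNAs, -0.0051 with quantile normalization and -0.32 with the tsRNA scale. On the scale of the bright probes the count of 0 became 60 with normexp (51 higher and 9 lower, against 86.2% and 1.62% of all RNAs), 13 among RNAs of at least 200 units (12 and 1, against 11.3% and 1.15%), 8 higher within slide 1 (8.18%), 78 with array weights (63 and 15, against 87.9% and 2.17%), 134 with trended variance (121 and 13, against 39.5% and 0.935%), 5 with the lower threshold and 0 to 14 over single arrays left out. The 5 with the lower threshold were all higher, of 445 probes (1.12%, against 1.32% of all RNAs). Why these counts moved was not tested.

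Signs turned for 3 named probes, none of them called in the main fit. Without sham 3, limma called ranks 1 and 5 lower, at -0.78 and -0.68 (adjusted p = 0.0269 and 0.0472), and did not call rank 359. Rank 1 stood at 0.00162 without scaling. Rank 5 stood at 0.32 without scaling, 0.18 with high-signal scaling and 0.40 with quantile normalization, and at -0.68 to 0.065 over arrays left out. Rank 359 stood at 0.12 with normexp, 0.36, 0.22 and 0.47 in those 3 scalings, and at -0.49 to 0.19 over arrays left out.

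With the replicate block limma called 212 lower (8.74% of all RNAs), and 29 on the scale of the bright probes (26 higher and 3 lower, against 74.3% and 0.969%). The numbers share nothing in the labels, and deviations of same-numbered arrays correlated at 0.11, -0.21 and 0.16 over all RNAs tested, so this is not read as a paired analysis.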

Other observations

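The slide correction on sham 3 changed the control spots at the corners of the array. The 14 GE_BrightCorner spots had a coefficient of variation of 1.64% before that step and 23.2% after it, with the lowest spot at 58098 units after it. On the other arrays it was 1.56% to 4.32%. Without the step, limma called 20 bright tsRNA probes lower in MI (5.56%, against 3.62% of all RNAs), of which 19 were among the 23 above. Across the slide, the median scaled log2 difference of the bright probes was -0.69, -0.67, -0.71 and -0.75 in 4 equal bands of rows (92, 85, 107 and 76 probes).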
